A study of Mus musculus with 96 samples.

Results

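This comparison sets prefrontal cortex of female mice labelled as treated with the CSF1R inhibitor PLX5622 (Plexxikon, PLX) against that of female controls without it, both from the saline arm of the study. It holds 6 PLX and 6 control libraries of the 96 in the series. Genes entered it when their value was at least 10 in at least 5 of these 12 libraries, which kept 18718 of the 22709 genes in the deposited table. The wider study measured messenger RNA in hippocampus and prefrontal cortex of mice of both sexes from a design that crossed maternal inflammation (maternal immune activation, MIA) or saline with the inhibitor. Its stated purpose was to target and renew microglia. Both groups here share the saline injection, which is the control for MIA, and differ in the inhibitor alone as far as the labels say. The labels give no strain, age, dose, vehicle, litter or time after the injections, and do not say whether dams or offspring received PLX5622, or whether controls received anything in its place. Nor do they say that libraries came from separate animals or litters, so p-values measure the spread between libraries, which may in part be technical.

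Microglia are the resident macrophages of the brain. They depend for survival on the receptor CSF1R, a tyrosine kinase that binds the cytokines CSF1 and IL-34, and inhibitors that enter the brain deplete them. Once the drug is withdrawn microglia repopulate the tissue from surviving cells. In the healthy brain they carry a set of genes that other macrophages largely lack, such as P2ry12, Tmem119, Fcrls, Gpr34 and Siglech, and they lose parts of it on activation. Macrophages at the borders of the brain, in meninges and around vessels, also carry CSF1R and are marked by genes such as Cd163, Mrc1 and Siglec1. In whole tissue, fewer cells of a type and less RNA per cell cannot be told apart.

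Sequencing depth was even. The 12 libraries held 23784400 to 25928300 reads each (rounded), and pairs of them correlated at 0.977 to 0.990 over genes. Cortical tissue was checked by Slc17a7 of excitatory neurons, which had a signal (reads divided by a factor per library) of 32497 to 39071. Striatal markers varied within both groups, with Adora2a at 115 to 764 in controls and 162 to 645 in PLX libraries. Controls 04, 05 and 06 lay far from the other 9 libraries on the first principal component of the 48 prefrontal libraries, where 14 of the 48 form the far cluster, called outlying here. In these 3 controls, 141 genes of cytosolic ribosomes and oxidative phosphorylation took 0.943 to 0.998% of the signal, against 0.700 to 0.710% in controls 01 to 03 and 0.656 to 0.728% in the PLX libraries. Xist lay at 11585 to 12710 in them and at 18060.5 to 28462 in the other 9. The outlying libraries are thus 3 of 6 controls and 0 of 6 PLX libraries, so fold changes are also given from a fit with a term for outlying libraries and from one without them. Their part in the results was not tested beyond those fits.

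Promoters of Fcrls and Siglech are shown because these are the called genes whose promoters the RefSeq table holds. Its build, GRCm38.p6, is not the GRCm39 the authors aligned to, and coordinates here are those of GRCm38.p6. Capitals mark matches to GAGGAAG or GGAAGTG on either strand, short purine-rich strings of the kind bound by PU.1, the ETS factor that sets the macrophage lineage and is encoded by Spi1. The 300 bases around the start of Fcrls lie at chr3:87263475-87263774 on the minus strand, and hold GAGGAAG on the plus strand of the gene from position -144 and GGAAGTG on the opposite strand from position -76. Those of Siglech lie at chr7:55767934-55768233 on the plus strand and hold GGAAGTG on the opposite strand from position -157.
Fcrls: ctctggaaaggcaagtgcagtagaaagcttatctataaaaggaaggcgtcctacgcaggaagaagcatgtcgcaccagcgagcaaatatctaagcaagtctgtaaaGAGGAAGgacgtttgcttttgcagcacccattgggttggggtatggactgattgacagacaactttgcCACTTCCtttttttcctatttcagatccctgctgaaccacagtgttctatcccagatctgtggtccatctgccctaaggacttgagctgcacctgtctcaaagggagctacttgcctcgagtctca
Siglech: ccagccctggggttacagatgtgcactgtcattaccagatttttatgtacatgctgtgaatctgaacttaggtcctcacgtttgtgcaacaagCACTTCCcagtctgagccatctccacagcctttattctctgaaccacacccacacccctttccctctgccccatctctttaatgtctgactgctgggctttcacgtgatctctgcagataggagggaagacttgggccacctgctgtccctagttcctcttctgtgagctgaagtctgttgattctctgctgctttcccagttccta
Of 31 genes (the called genes and the microglia list below) 20 had a promoter in the table. GAGGAAG was present in 5 of these 20 and GGAAGTG in 7, against 15.4% and 12.5% of all 27025 genes with a promoter of this length. The strings can overlap each other, and a match is a description of the sequence only.

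The inhibitor group had less mRNA of 5 genes, and 4 of them are markers of resting microglia. Limma with Benjamini-Hochberg adjustment called 0 genes higher and 5 lower at an adjusted p under 0.05, which is 0.0267% of those tested; 3422 (18.3%) had an unadjusted p under 0.05, 1873 higher (10%) and 1549 lower (8.28%). All values of a called gene in PLX libraries lay below all control values, in controls 01 to 03 as in controls 04 to 06. Over all genes such a gap downwards occurred in 61 (0.326%) and upwards in 75 (0.401%), and against controls 01 to 03 alone in 194 (1.04%) and 197 (1.05%). edgeR called the same 5, and DESeq2 called 7 lower and 1 higher. With these 12 libraries alone in the fit limma called 0, with 3883 at an unadjusted p under 0.05.

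Upk1b, which encodes uroplakin 1B, a tetraspanin of the bladder lining that microglia also transcribe, had the largest fold change of the called genes. Its signal was 24.5, 29.6 and 41.1 (lowest, median and highest) in controls and 5.15, 7.54 and 19 in PLX libraries. PLX libraries 03 and 05 had 15.6 and 19, while the other 4 lay between 5.15 and 8.06, so the PLX group itself was spread widely. The log2 fold change was -1.67 ± 0.28 (SE; limma adjusted p = 0.00456), a mean 68% lower.

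Fcrls encodes an Fc receptor-like scavenger receptor found on mouse microglia. It had 519, 638 and 848 in controls and 353, 453 and 498 in PLX libraries, so the groups were separated by a narrow gap. It fell by 0.57 ± 0.10 on the log2 scale (limma adjusted p = 0.00456), a mean 33.2% lower.

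Gpr34, a receptor for lysophosphatidylserine, had 336, 395 and 519 in controls and 251, 267 and 318 in PLX libraries. Controls 01 to 03 lay just above the highest PLX library, at 336 to 368, and controls 04 to 06 higher, at 421 to 519. It fell by 0.58 ± 0.11 (limma adjusted p = 0.0236).

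Siglech, a sialic acid-binding lectin of microglia and plasmacytoid dendritic cells, had 355, 402 and 503 in controls and 281, 296 and 333 in PLX libraries. The PLX values were the tighter of the groups. It fell by 0.46 ± 0.09 (limma adjusted p = 0.0236).

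Myo18b, an unconventional myosin known from the assembly of muscle sarcomeres, is the called gene outside the microglia list. It had 74.9, 92.7 and 97.8 in controls and 56, 57.3 and 68.3 in PLX libraries. Here the outlying libraries (74.9 to 96) were no higher than controls 01 to 03 (83.4 to 97.8). It fell by 0.58 ± 0.12 (limma adjusted p = 0.046).

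**Figure D1:**
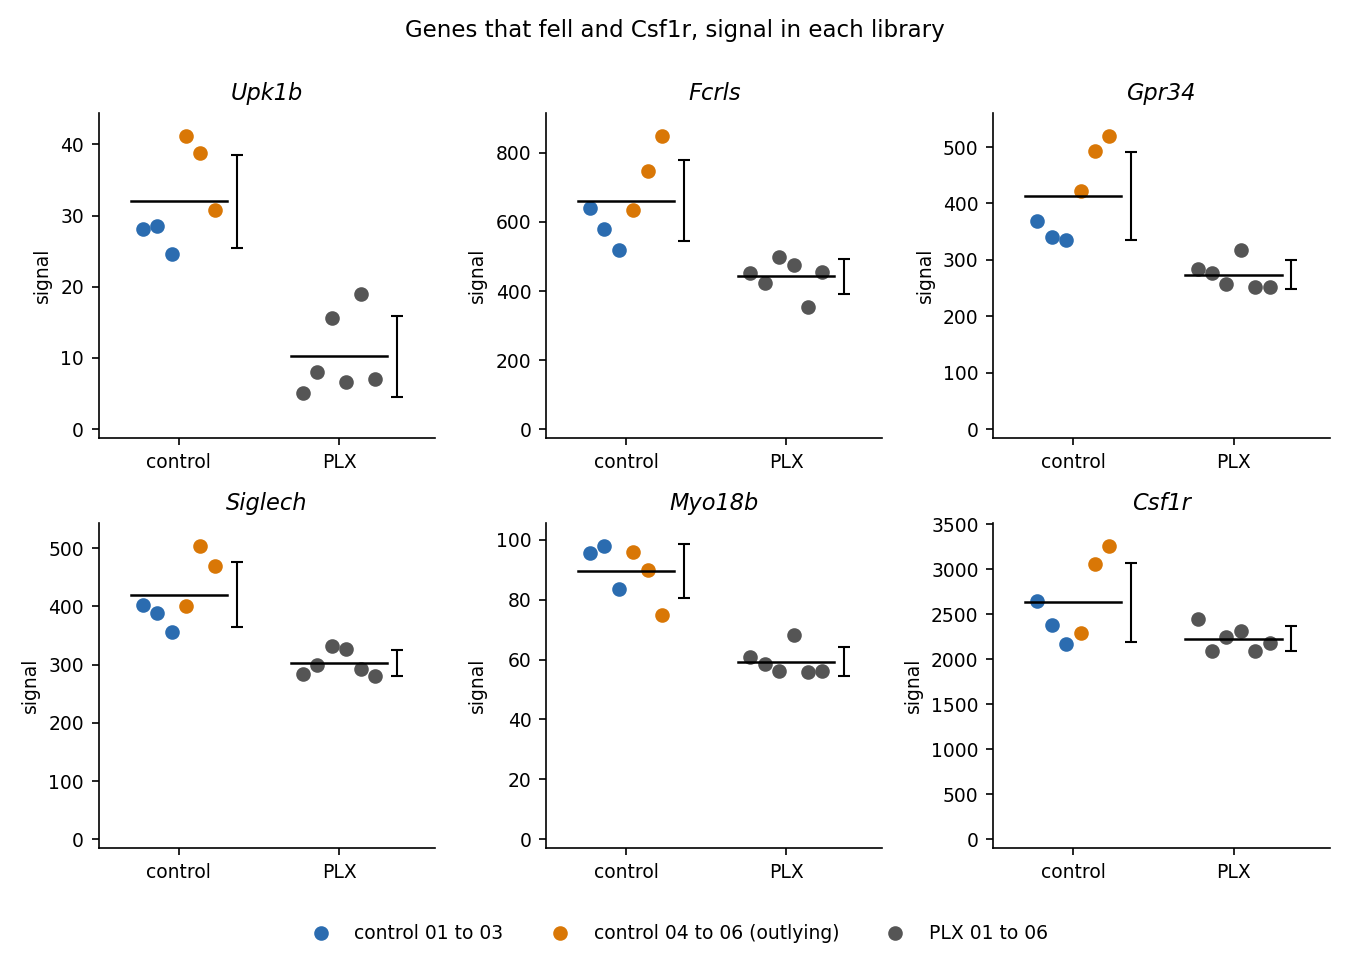
Signal of Upk1b, Fcrls, Gpr34, Siglech, Myo18b and Csf1r (linear axis) in each of the 6 control and 6 PLX libraries; each point is a library, bars are means and whiskers are SD. The PLX points lie below every control point for the 5 called genes and overlap the controls for Csf1r.

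With the term for the outlying libraries, limma called Upk1b (-1.65, adjusted p = 0.0139), Myo18b (-0.66, adjusted p = 0.0139) and Fcrls (-0.46, adjusted p = 0.019), 3 genes or 0.016%, with 695 (3.71%) at an unadjusted p under 0.05. Gpr34 stood at -0.50 and Siglech at -0.39 in that fit (adjusted p = 0.132 each). Without the outlying libraries, which leaves 3 controls, no gene was called lower and 1 (0.00534%) was called higher, with 424 (2.27%) at an unadjusted p under 0.05. The fold changes were then -1.46 for Upk1b, -0.63 for Myo18b, -0.39 for Fcrls, -0.35 for Gpr34 and -0.33 for Siglech (adjusted p of 0.983 to 1). The call for Upk1b held in 12 of 12 fits that left out 1 library. That for Fcrls held in 11, all but the one without PLX 05, for Siglech in 5, for Gpr34 in 4 and for Myo18b in 2 (those without control 06 or PLX 04). The number of genes called was 1 without PLX 05, 2 without control 04, control 05, PLX 01, PLX 02 or PLX 06, 3 without control 06 or PLX 03, 4 without control 02 or control 03 and 6 without control 01 or PLX 04.

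Csf1r, the receptor that PLX5622 blocks, was not called. Its signal in controls 01 to 06 was 2644, 2381, 2166, 2295, 3057 and 3255, and in PLX libraries 01 to 06 2448, 2090.1, 2248, 2313, 2094 and 2184. Controls 01, 05 and 06 lay above every PLX library, and controls 02, 03 and 04 within the PLX range. The difference was -0.23 ± 0.06 on the log2 scale (limma adjusted p = 0.266; exact permutation test, two-sided, p = 0.0563). Without the outlying libraries it was -0.10 (exact permutation p = 0.226, where 6 against 3 libraries can give no less than 0.0119). Without 1 library the exact permutation p ran from 0.0173, without control 03, to 0.108, and it was under 0.05 also without control 02, control 04 or PLX 01.

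The ligands of the receptor had near-equal means. Csf1 had 424 to 522 in controls and 430.4 to 554 in PLX libraries (0.0025 ± 0.06). Il34, the ligand made mainly by neurons, had 1437 to 1895 and 1423 to 1629.9 (-0.08 ± 0.08, and 0.04 with the term). Trem2, a lipid sensor of microglia, and its adaptor Tyrobp, which also serves CSF1R signalling, differed by -0.34 ± 0.14 and -0.37 ± 0.14 (limma adjusted p = 0.266 each), and by -0.0075 and -0.09 without the outlying libraries. Of 14 tested genes in a list of CSF1R, its ligands, related receptors and adaptors, 0 were called and the median was -0.05. At an unadjusted p under 0.05, 3 were lower and 0 higher, against 8.28% and 10% of all genes. That list holds Dap3, a mitochondrial ribosomal protein, by error.

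All 30 genes of the homeostatic microglia list were tested, and 4 were called, all lower: Upk1b, Fcrls, Gpr34 and Siglech. At an unadjusted p under 0.05, 17 of 30 were lower and 1 higher, against 8.28% and 10% of all genes, and the median was -0.23 against 0.004 over all genes tested. The groups did not overlap in 6 of 30, with PLX lower in each, against 0.326% of all genes. With the term 13 were lower and 0 higher (1.91% and 1.8% of all genes) around a median of -0.13. Without the outlying libraries 8 were lower and 3 higher (0.951% and 1.31% of all genes) around -0.08. Whatever their p, 22 of the 30 differences lay below 0 and 8 above 0 in each of the 3 fits. The members named below are mostly lower ones. The list's members were chosen with earlier results of these data known. The summed signal of the list was 44317 to 51883 in controls 04 to 06 and 39238 to 40526 in controls 01 to 03. In PLX libraries it was 38524 to 41332, so they were not below controls 01 to 03 in sum. Such a sum follows the most abundant members. Markers such as Cx3cr1 and P2ry12, at most 1615 and 1161 in controls, add little to it. It is thus no measure of microglial RNA as a whole. Of the 30 genes, 6 had every PLX value below controls 01 to 03 (1.04% of all genes).

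Apart from the called genes, the members of the microglia list that did not overlap between the groups were Slc2a5 and P2ry12. Slc2a5, the fructose transporter GLUT5 of microglia, had 106, 129.7 and 187 in controls and 79, 94 and 101 in PLX libraries (-0.55 ± 0.12, limma adjusted p = 0.166; called by DESeq2). P2ry12, the ADP receptor that steers microglial processes, had 893, 1005 and 1161 against 720.5, 789 and 825 (-0.41 ± 0.10, adjusted p = 0.26). Without the outlying libraries the differences of these genes were -0.27 and -0.31.

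Crybb1, a lens crystallin that young microglia transcribe, had 76.6 to 148 in controls and 46.3 to 90.8 in PLX libraries (-0.83 ± 0.19, limma adjusted p = 0.202), and 1 PLX library, 04, reached 90.8. DESeq2 called it, as did limma without PLX 04. Cx3cr1, the fractalkine receptor, had 1103 to 1615 and 803 to 1177 (-0.36 ± 0.09, adjusted p = 0.266) and overlapped. Pald1, a putative phosphatase also made by endothelium, differed by -0.28 ± 0.07 (adjusted p = 0.26), and by -0.17 without the outlying libraries.

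Several other markers differed less, and less still without the outlying libraries. Lpcat2, an enzyme that makes platelet-activating factor, and the purinergic receptor P2ry13 differed by -0.36 and -0.34, and by -0.20 and -0.22 without those libraries. Tmem119 differed by -0.27 ± 0.11 and by -0.08 without them, the selectin ligand Selplg by -0.27 and -0.03, and the ribonuclease Rnase4 by -0.31 and -0.08. Golm1, a Golgi membrane protein, was the member with a higher mean at an unadjusted p under 0.05 (0.27 ± 0.11). None of these 6 was called (limma adjusted p = 0.266 each).

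**Figure D2:**
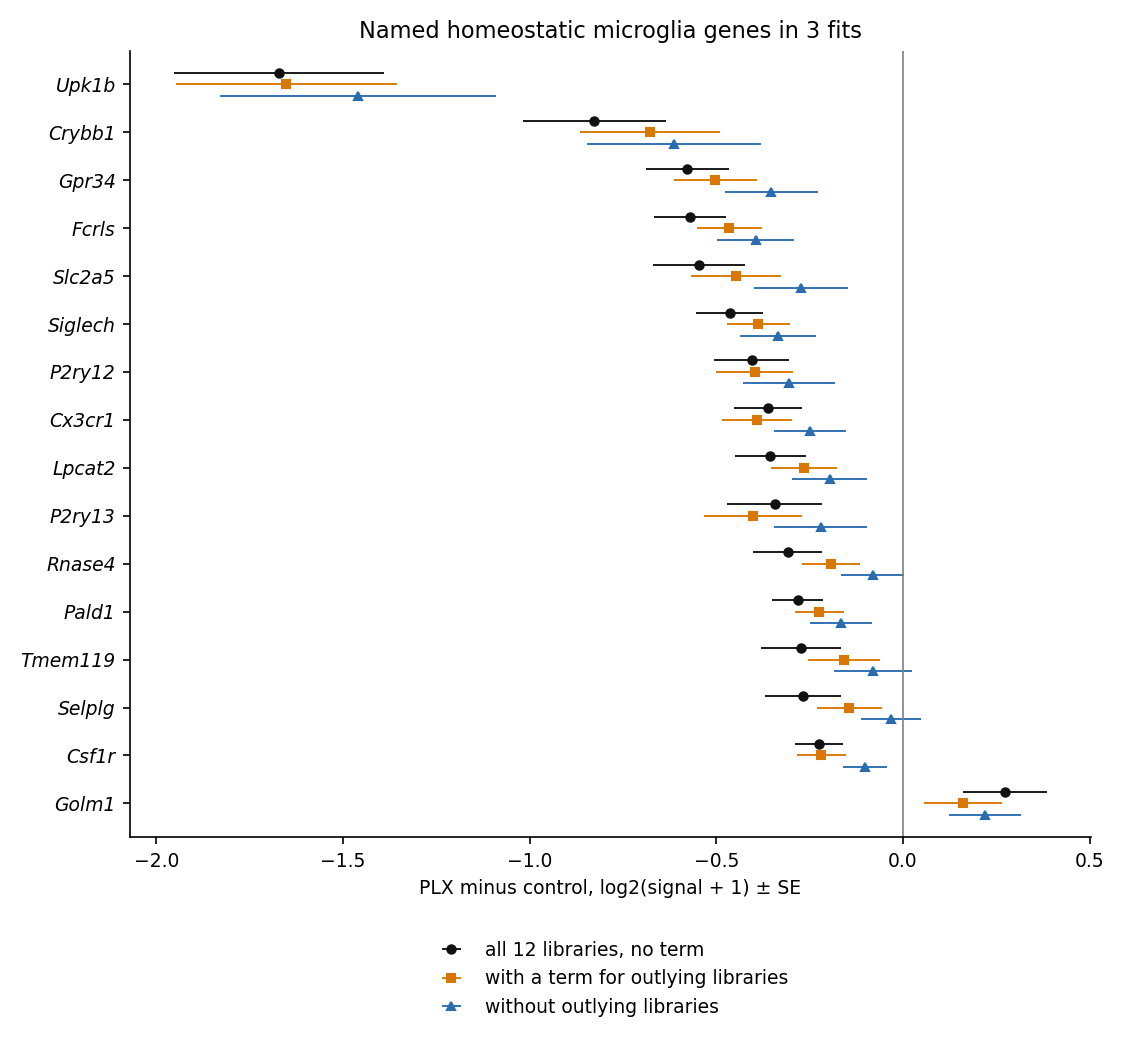
Difference of PLX from control on the log2(signal + 1) scale (horizontal axis, ± SE) for the 16 homeostatic microglia genes named in the text in 3 fits: all libraries, with a term for the outlying libraries, and without them. Upk1b lies farthest left in all 3, and most markers with lower values lie closer to 0 without the outlying libraries. The genes drawn are mostly lower ones, whereas 22 of all 30 in the list lay below 0 and 8 above 0 in each fit.

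Of 13 tested genes in a list of microglial transcription factors 0 were called. Spi1, which encodes PU.1, had 47.1 to 85.2 in controls and 37 to 60.2 in PLX libraries (-0.35 ± 0.17, limma adjusted p = 0.272, and -0.18 without the outlying libraries). It was the 1 of 13 tested factors with an unadjusted p under 0.05, and the list's median was -0.05. Other members were far more abundant than Spi1, such as Mef2c at 13802 to 23116.5 in controls. Values of whole tissue do not show which cells such RNA came from. Of 17 genes of TGF-beta signalling, which maintains the resting state of microglia, 2 were higher and 0 lower at that level (median 0.09, and 0.0033 with the term). The shares of all genes at that level were 10% higher and 8.28% lower.

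In the other direction, a few immune genes of low signal had higher values in the PLX libraries. Ly9, a SLAM-family receptor of lymphocytes and myeloid cells, had 1.02, 8.64 and 13.4 in controls and 15.6, 18.6 and 24.7 in PLX libraries. The groups did not overlap, and controls 01 to 03 (1.02 to 6.87) were lower than controls 04 to 06 (10.4 to 13.4). The difference was 1.39 ± 0.33 (limma adjusted p = 0.217), and 1.54 with the term (adjusted p = 0.132). Leaving out the outlying libraries gave 2.13, where it was the 1 gene called (adjusted p = 0.0348). In that fit only PLX libraries reached the floor of 10 for Ly9.

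Siglec1, or sialoadhesin, a lectin of border and other tissue macrophages, had 7.31, 16.9 and 37.2 in controls and 39.3, 47.2 and 61.3 in PLX libraries. Control 01 alone, at 37.2, came near the PLX range, and the next control lay at 20.4. The difference was 1.55 ± 0.34 (limma adjusted p = 0.13). It was 1.13 with the term (adjusted p = 0.688), and leaving out the outlying libraries gave 1.02 (adjusted p = 1). DESeq2 called it, as did limma without control 01.

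Hcar2, which encodes a myeloid receptor for niacin and beta-hydroxybutyrate, was below the floor for testing. It had 2.01, 0, 0.982, 0.914, 0 and 1.92 in controls 01 to 06 and 4.12, 6.04, 3.12, 3.74, 9 and 9.03 in PLX libraries 01 to 06. The groups did not overlap, though such values stand for a handful of reads per library.

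Itgax, the integrin CD11c of dendritic cells and activated microglia, had 5.76 to 11.1 in controls and 11 to 40.1 in PLX libraries (0.97 ± 0.32, limma adjusted p = 0.266). PLX 01 (40.1) and PLX 06 (25.1) were high and PLX 03, 04 and 05 lay at 11 to 11.4, next to the highest control. Itgax met the floor of 10 through the PLX libraries and control 01 alone. Clec7a, a beta-glucan receptor, differed by 0.65 ± 0.34 and lysozyme Lyz2 by 0.16 ± 0.17. With the term Lyz2 differed by 0.35 and without the outlying libraries by 0.44. Cd52, a leukocyte surface protein, differed by 0.32 ± 0.24, and by 0.83 without the outlying libraries. Controls 04 to 06 (24.7 to 30.3) were above controls 01 to 03 (11.1 to 17.3). Over the list of monocyte, dendritic cell and lymphocyte genes, 13 of 29 could be tested, 0 were called and the median was 0.16. At an unadjusted p under 0.05, 2 were higher and 1 lower, against 10% and 8.28% of all genes. Ccr2, the chemokine receptor of monocytes, ran from 8.64 to 17.7 in controls and 5 to 17.1 in PLX libraries. Of the list, 3 genes were below the floor for testing. Another 13, Cd3e and S100a8 among them, were not among the 22709 genes with values.

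**Figure D3:**
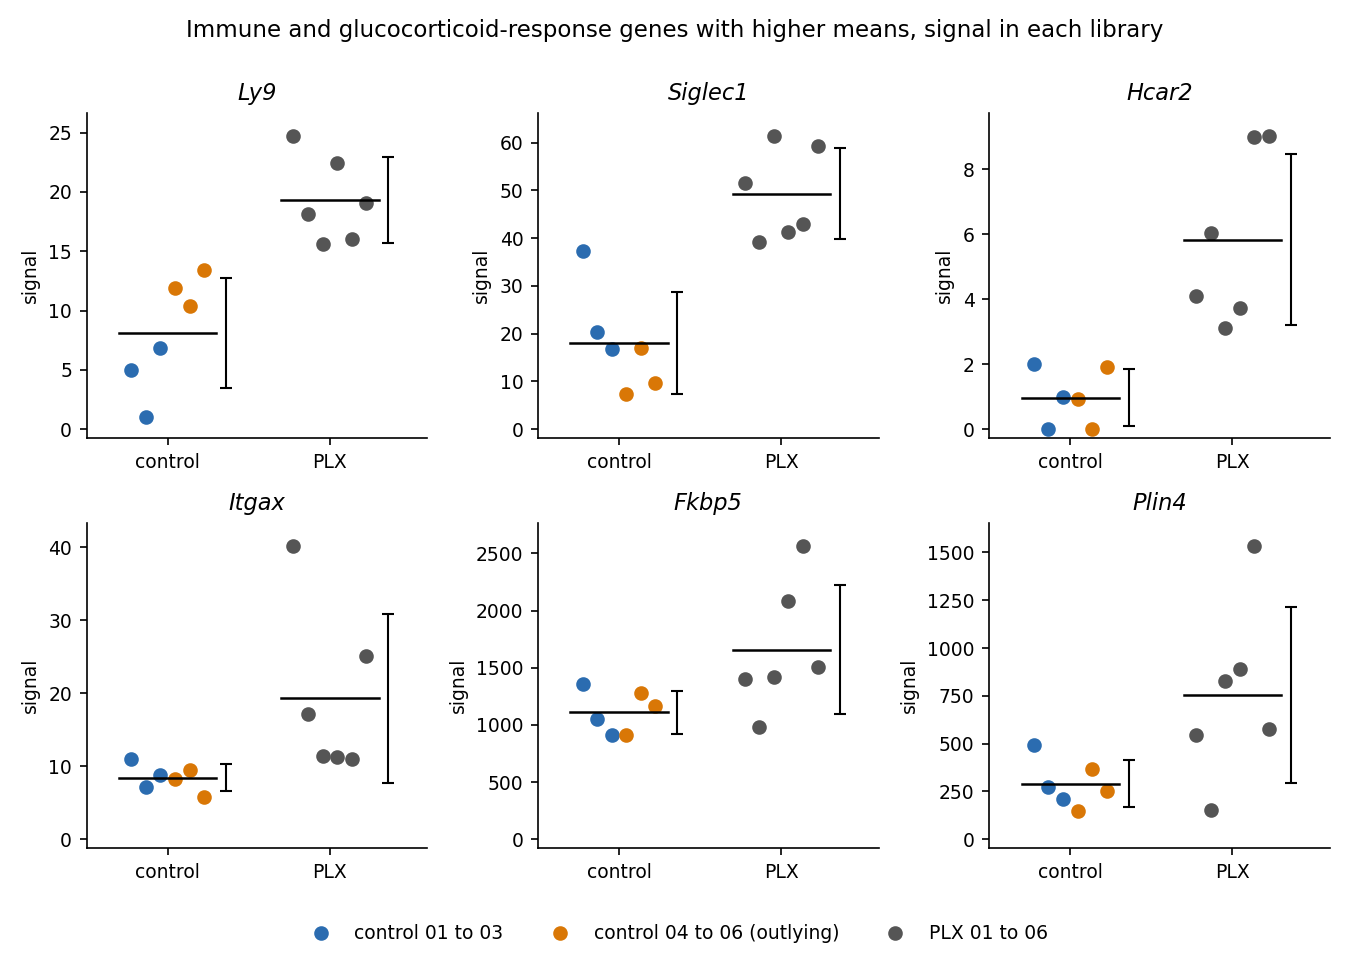
Signal of Ly9, Siglec1, Hcar2, Itgax, Fkbp5 and Plin4 (linear axis) in each of the 6 control and 6 PLX libraries; points are libraries, bars means and whiskers SD. Ly9, Siglec1 and Hcar2 do not overlap between the groups, while Itgax, Fkbp5 and Plin4 vary widely among the PLX libraries and overlap the controls.

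Of 15 border macrophage genes tested 0 were called. At an unadjusted p under 0.05, 2 were higher and 3 lower, against 10% and 8.28% of all genes, with a median of -0.09. The lower ones include Cd209a, which met the floor for testing through control libraries alone. Cd163, the haemoglobin scavenger receptor, had 86.9, 113 and 137 in controls and 58.2, 76 and 100.2 in PLX libraries (-0.49 ± 0.19, limma adjusted p = 0.266). This difference was as large with the term (-0.70) and without the outlying libraries (-0.54). F13a1, coagulation factor XIII A, was higher (69.7 to 111 against 108 to 188, 0.52 ± 0.19), so Cd163 differed in the opposite direction from F13a1 and Siglec1.

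The lectin Cd209a had 4.02 to 28.4 in controls and 5.02 to 8.43 in PLX libraries (-1.15 ± 0.32, adjusted p = 0.266), and controls 04 to 06 held the highest values (19.2 to 28.4). It differed by -0.51 without the outlying libraries. Without control 01, which had 4.02, limma called it. Cd209a met the floor for testing through control libraries alone, and no PLX library reached that floor. Its relatives Cd209b and Cd209f were below the floor for testing. Cd209b had 6.11 to 18 in controls and 1 to 5.62 in PLX libraries, and Cd209f 7.04 to 24.6 and 2.01 to 9.36. Cd209b did not overlap between the groups, though its relatives are similar in sequence and reads could be shared among them. Pf4, a chemokine of platelets and border macrophages, had 10.8 to 20.8 and 7.20 to 11.2 (-0.66 ± 0.23).

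Antigen presentation genes had lower values in part. Of 21 tested, 0 were called and the median was -0.22. At an unadjusted p under 0.05, 6 were lower and 1 higher, against 8.28% and 10% of all genes. With the term 2 were lower (1.91% of all genes) around a median of -0.08, and without the outlying libraries the median was -0.02. H2-M3, a nonclassical class I molecule, had 64.2 to 82.5 in controls and 49.4 to 60.3 in PLX libraries (-0.42 ± 0.13, limma adjusted p = 0.266) with no overlap, and differed by -0.36 without those libraries. The class II chain H2-Eb1 (-0.55 ± 0.18) and the immunoproteasome subunit Psmb8 (-0.44 ± 0.17) overlapped, and differed by -0.38 and -0.26 without them.

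Most complement, interferon and innate sensing genes did not pass even the unadjusted level, which 10% of all genes passed upwards and 8.28% downwards. Among 17 complement genes 1 was higher at an unadjusted p under 0.05, C4b (0.35 ± 0.13), and the 3 chains of C1q differed by -0.10 (C1qa), -0.17 (C1qb) and -0.05 (C1qc). With the term those chains stood at 0.11, 0.06 and 0.11, so the sign of these small differences depends on how the outlying libraries are treated. Of 27 interferon-stimulated genes 1 was higher, Stat2 (0.20 ± 0.08). Of 19 Toll-like receptors and adaptors, Tlr12 was lower (-0.64 ± 0.21, and -0.27 without the outlying libraries) and Tlr7 higher (0.35 ± 0.16). None of these genes was called, and the medians of the 3 lists were -0.0036, 0.0045 and -0.03. With the term they were 0.04, 0.07 and -0.07, and without the outlying libraries 0.08, 0.17 and 0.04. In the latter fit 14 of 17 complement genes, 22 of 27 interferon-stimulated genes and 11 of 19 Toll-like receptors and adaptors lay above 0.

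Among 21 cytokines and receptors, 5 were lower and 1 higher at an unadjusted p under 0.05, against 8.28% and 10% of all genes. The lower ones included both chains of the interleukin-10 receptor. Il10ra had 123 to 218 in controls and 121 to 141 in PLX libraries (-0.27 ± 0.11), and Il10rb had 119 to 182 and 94 to 155 (-0.30 ± 0.10). Without the outlying libraries they stood at -0.03 and -0.15. Fcgrt, the neonatal Fc receptor, was the other of 6 Fc receptor genes, besides Fcrls, that was lower (-0.32 ± 0.10, limma adjusted p = 0.266, and -0.12 without the outlying libraries).

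The disease-associated microglia list holds genes that activated microglia raise around damage. Of its 24 tested members 1 was higher and 6 lower at an unadjusted p under 0.05, with 0 called. The higher one, Itgax, met the floor of 10 through the PLX libraries and control 01 alone. The list's median was -0.09, and -0.0069 with the term. The shares of all genes at that level were 10% higher and 8.28% lower. Cd63, a tetraspanin of lysosomes, had the smallest p of the lower members (-0.41 ± 0.14, and -0.16 without the outlying libraries). Lysosomal genes were similar: 6 of 22 were lower and 1 higher, among them the protease Lgmn (-0.17) and the membrane protein Lamp1 (-0.13), and their median went from -0.11 to 0.0009 with the term, where 0 were lower.

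Outside the immune lists, the genes with the smallest p that were higher in PLX libraries were Ksr1, a scaffold of the RAF to ERK pathway, Lrrc8c, a subunit of volume-regulated anion channels, Zscan20 and Pcgf3, a Polycomb protein, none of them called. Ksr1 had 1310.1, 1473 and 1663 in controls and 1787, 1896 and 2073 in PLX libraries (0.38 ± 0.09, limma adjusted p = 0.242). Lrrc8c had 762 to 1057 and 907 to 1383 (0.43 ± 0.11) and overlapped. Zscan20, a zinc finger protein, had 136 to 194 and 196 to 248 (0.43), and Pcgf3 1398 to 1676 and 1696 to 1847 (0.21). Ksr1, Zscan20 and Pcgf3 did not overlap between the groups, though controls 01 to 03 lay closer to the PLX range than controls 04 to 06 in each. Without the outlying libraries the differences were 0.22, 0.31 and 0.12.

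The remaining names on the higher side were the zinc finger gene Zfp493 (0.34), the ciliary receptor Gpr161 (0.41), the p53 target Trp53inp1 (0.50), the kinases Stk36 (0.48) and Dapk1 (0.28), and Stambp-ps1 (0.81), a pseudogene whose reads could come from its parent gene. Stk36 and Stambp-ps1 did not overlap between the groups. Their differences without the outlying libraries ran from 0.14 for Gpr161 to 0.73 for Stambp-ps1. On the lower side the non-microglial names were Haus4, a subunit of the augmin complex of the spindle (37.7 to 67.7 against 24.2 to 48.7, -0.66 ± 0.17), and Acaa2, a thiolase of mitochondrial fatty acid oxidation (-0.36 ± 0.09, and -0.18 without those libraries). Both had a limma adjusted p of 0.266.

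Neuronal and glial markers gave no call. For the counts below, 10% of all genes were higher and 8.28% lower at an unadjusted p under 0.05. Without the outlying libraries these shares were 1.31% and 0.951%. Of 21 genes of cortical excitatory neurons 1 was higher and 1 lower at an unadjusted p under 0.05 (median 0.06), and of 18 interneuron genes 1 and 2 (median -0.06). Striatal genes had 0 of 16 in either direction in spite of a median of -0.24, which was 0.01 without the outlying libraries. Astrocyte genes had 2 higher and 2 lower of 20, with Fgfr3 at 0.20 ± 0.09 and 0.27 without those libraries. Myelin genes had 0 higher and 4 lower of 19, led by Opalin (133 to 275 in controls and 84 to 145 in PLX libraries, -0.64 ± 0.22). Without those libraries Opalin was -0.27, 0 of 19 were lower and the median was 0.05. Precursors of oligodendrocytes had 3 higher and 1 lower of 15, with Tnr at 0.48 and, with the term, 0.03. Endothelial genes had 1 higher and 7 lower of 19, with Itm2a at -0.31 ± 0.09 and -0.15 without those libraries. Mural and fibroblast genes had 1 and 1 of 19, choroid plexus and ependymal genes 0 and 0 of 8, and blood genes 0 and 1 of 6.

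Ribosomal protein and respiratory chain genes were lower mainly against the outlying controls. For the counts below, 8.28% of all genes were lower and 10% higher, and with the term 1.91% and 1.8%. Of 79 ribosomal protein genes 42 were lower and 0 higher at an unadjusted p under 0.05 (median -0.27), with Rpl32 at -0.38 ± 0.12 and Rpl23 at -0.35 ± 0.11. With the term 3 were lower around a median of -0.06. Of 62 nuclear genes of oxidative phosphorylation 28 were lower and 0 higher (median -0.23), such as Ndufs8 of complex I (-0.37 ± 0.14) and Cox6b1 of complex IV (-0.34 ± 0.13), and 0 with the term around -0.03. The reverse held for synaptic receptors and scaffolds, with 7 of 28 higher and 1 lower around 0.15, such as Shank2 (0.32) and the NMDA receptor subunit Grin2a (0.38). With the term 0 of them were higher or lower (median 0.0047). The outlying libraries were defined from expression values that include the genes of these lists. A smaller difference with the term was thus in part built in. Long noncoding RNAs retained in the nucleus had 0 higher and 2 lower of 11 around 0.12.

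**Figure D4:**
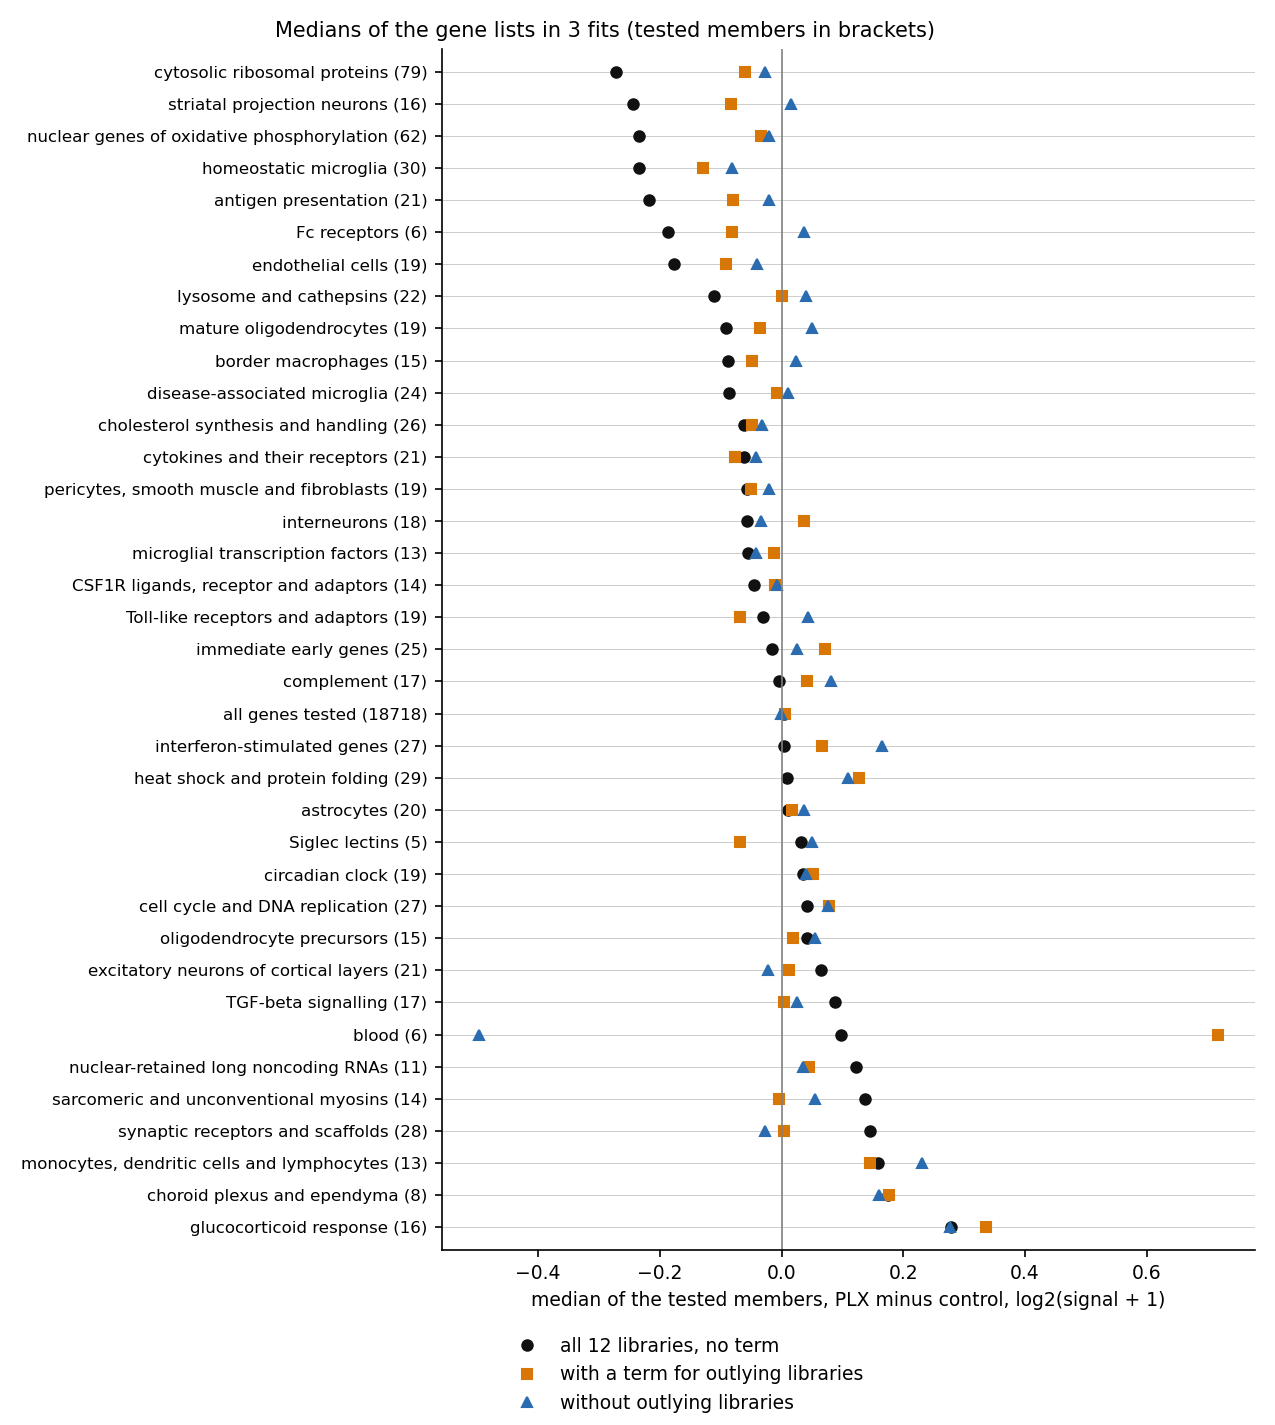
Median difference of PLX from control on the log2(signal + 1) scale (horizontal axis) over the tested members of each gene list, in 3 fits, with the number of members in brackets and all genes tested for reference. Ribosomal, respiratory and synaptic medians move close to 0 with the term or without the outlying libraries, while that of the glucocorticoid response lies between 0.28 and 0.34 in all 3. The outlying libraries were defined from values that include the genes drawn, so such moves are in part built in.

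Of 16 glucocorticoid-responsive genes tested 0 were called. At an unadjusted p under 0.05, 4 were higher and 0 lower, against 10% and 8.28% of all genes, and the median was 0.28. With the term 7 were higher and 1 lower, against 1.8% and 1.91% of all genes (median 0.34), and without the outlying libraries 2 were higher, against 1.31% (median 0.28). Fkbp5, a chaperone that limits the glucocorticoid receptor, had 908, 1111 and 1354 in controls and 979, 1461 and 2563 in PLX libraries (0.52 ± 0.23, limma adjusted p = 0.266). PLX 04 (2084) and PLX 05 (2563) were the highest of the 12 and PLX 02 (979) lay within the controls. The lipid droplet protein Plin4 had the same order at its ends, with 1532 in PLX 05, 889 in PLX 04 and 152 in PLX 02, against 148 to 494 in controls (1.18 ± 0.64). The kinase Map3k6 differed by 0.44 ± 0.21, the zinc finger factor Zbtb16 by 0.76 ± 0.27 and Klf9 by 0.20 ± 0.08. Zbtb16 was 0.29 without the outlying libraries, whose values (603 to 783) were the lowest of the 12.

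Other programmes gave few differences, where 10% of all genes were higher and 8.28% lower at an unadjusted p under 0.05. Immediate early genes had 0 of 25 at an unadjusted p under 0.05 in either direction, clock genes 1 higher of 19, which was not Per2 (0.35 ± 0.20), and cholesterol genes 2 lower of 26. Chaperones had 1 higher and 2 lower of 29, the former being Derl3, which helps clear misfolded proteins from the endoplasmic reticulum (13.7 to 36.7 in controls and 36 to 49.4 in PLX libraries, 0.70 ± 0.23, limma adjusted p = 0.266). Its difference was 0.99 without the outlying libraries. Cell cycle genes had 3 higher of 27. Among 14 myosins Myo18b was the 1 lower and 4 were higher at that level. Of the latter, Myo7a (0.27, and 0.12 without the outlying libraries) and Myo1e (0.20, and 0.20) did not overlap between the groups. Over all genes such a gap upwards occurred in 0.401%. Myo18b thus differed in direction from those relatives.

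The difference of the inhibitor's effect between these females and other groups was tested directly. Between males and females of the saline arm limma called 0 genes (504, or 2.69%, at an unadjusted p under 0.05). Between the MIA and saline arms in females it called 0 (572, 3.06%), and between hippocampus and prefrontal cortex of saline females 0 (223, 1.19%). edgeR and DESeq2 were not run on these differences. The hippocampal libraries carry the same sample numbers as the prefrontal ones, and with that number as a block 0 were called as well.

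The called genes had these values elsewhere, where limma called 76 genes in saline males (0.406%), 4 in MIA females (0.0214%), 3 in MIA males (0.016%) and 6 in hippocampus of saline females (0.0321%). Fcrls differed by -0.57 here, -0.55 in saline males, -0.58 in MIA females, -0.56 in MIA males and -0.56 in hippocampus of saline females, and limma called it in all 5 (adjusted p of 0.00329 to 0.035). With the term it was not called in MIA males (-0.44, adjusted p = 0.114) or in hippocampus (-0.44, adjusted p = 0.134), where the term marks the libraries that share a sample number and group with the outlying prefrontal ones. Upk1b differed by -1.70 in saline males, -1.09 in MIA females (adjusted p = 0.201), -1.67 in MIA males and -0.97 in hippocampus. Myo18b differed by -0.74 in saline males, -0.57 in MIA females, -0.43 in MIA males (adjusted p = 0.138) and -0.64 in hippocampus. The hippocampal calls of Upk1b and Myo18b (adjusted p = 0.035 each) were lost with the term (-0.92 and -0.65, adjusted p = 0.134 each). In the fit without the term these 3 genes had lower means under the inhibitor in every one of the 5. Outlying libraries were more frequent among controls than PLX libraries in the other prefrontal pairs as well. In hippocampus of saline females the ribosomal and respiratory share was 0.991 to 1.04% in controls 04 to 06. It was 0.751 to 0.828% in controls 01 to 03 and 0.668 to 0.851% in PLX libraries. The 5 pairs thus share this imbalance to differing degrees and are not independent repeats. Its part was not tested beyond the fits with the term.

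Gpr34 was less even, with -0.14 in saline males (limma adjusted p = 0.391), -0.32 in MIA females, -0.38 in MIA males and -0.63 in hippocampus of saline females (adjusted p = 0.035). With the term the hippocampal call was lost (-0.55, adjusted p = 0.134). The male minus female difference in its effect was 0.44 ± 0.16 (adjusted p = 1), so a difference between the sexes was not shown. Siglech had -0.19, -0.32, -0.32 and -0.41 in the same order, none of them called. Ly9, not called here with all libraries, was called in MIA females (1.58, adjusted p = 0.0439) and MIA males (1.86, adjusted p = 0.0133). Lyz2 was called in saline males (0.93, adjusted p = 0.00531) and differed by 0.16 here (0.35 with the term), and the difference between the sexes was 0.77 ± 0.24 (adjusted p = 1).

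**Figure D5:**
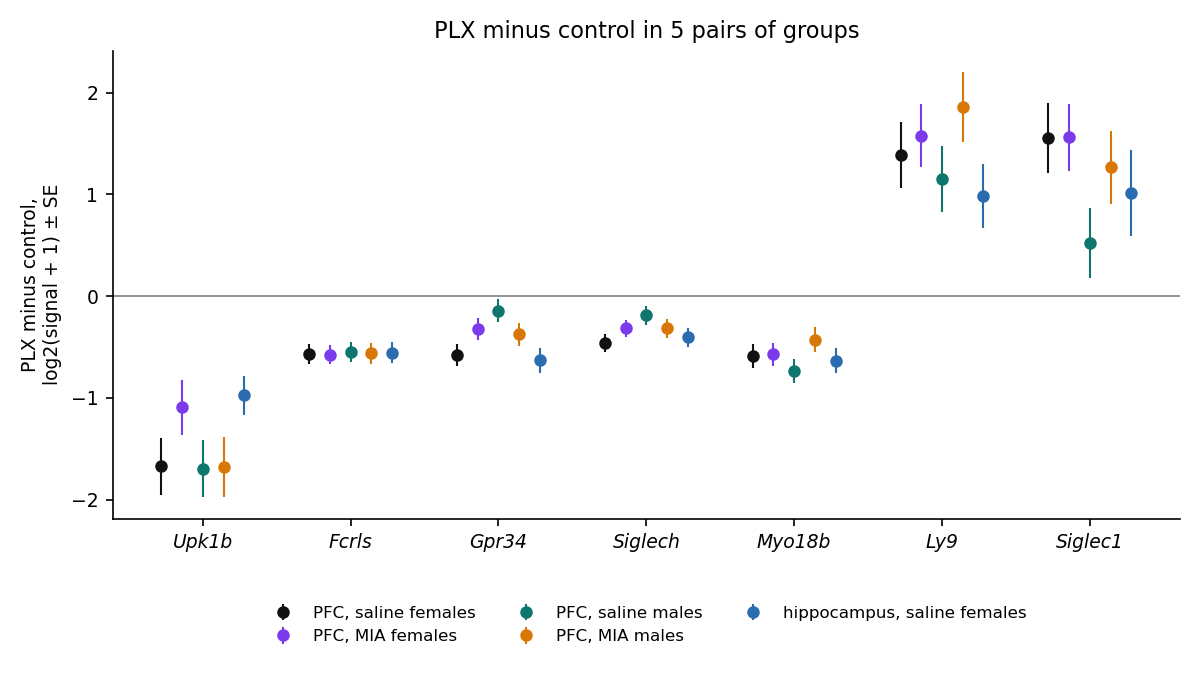
Difference of PLX from control on the log2(signal + 1) scale (vertical axis, ± SE) for 7 genes in prefrontal cortex (PFC) of saline females, MIA females, saline males and MIA males and in hippocampus of saline females. Fcrls lies between -0.58 and -0.55 in all 5, while Gpr34 runs from -0.63 to -0.14.

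The smallest p-values of the differences themselves belonged to other genes. For males minus females they were Tent5c, a poly(A) polymerase (0.72 ± 0.14, limma adjusted p = 0.104), the chromatin assembly factor Chaf1a (-0.62) and the actin bundler Lcp1 of leukocytes (0.45). The effect on Tent5c was -0.25 ± 0.10 in these females and 0.47 ± 0.10 in saline males. For MIA minus saline they were Zfp493 (-0.54), the spindle protein Ckap2l (-1.18) and the metalloprotease Amz1 (0.43), and for hippocampus minus prefrontal cortex the heparan sulfate sulfotransferase Hs3st5 (-0.74), the small heat shock protein Hspb3 (-1.06) and Cox15 (-0.18), which acts in heme A synthesis. Their adjusted p ran from 0.86 to 1, apart from that of Tent5c.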

How the data were processed

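Libraries were made from polyadenylated RNA with a stranded kit, per the labels' protocols. Reads were trimmed with Trimmomatic and aligned with STAR 2.6.1d to GRCm39, per the submitters' processing notes, with the counting tool not given in the sources used here. Deposited values are a signal, namely counts that the authors divided by 1 factor per library (whole reads were recovered in all 96 columns, tolerance 0.01). Genes carry symbols without coordinates.

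The 48 prefrontal libraries in 8 groups were fitted on log2(signal + 1) with limma 3.58.1 (R 4.3.3), with a trend on the mean and Benjamini-Hochberg adjustment over 18718 genes, two-sided. A fold change on this scale understates that of low genes. Hippocampus was added for the tissue difference. The code was tested on simulated data. Outlying libraries are the far cluster of an optimal split of the first principal component (27.9% of the variance) into 2. edgeR 4.0.16 and DESeq2 1.42.0 were run on the recovered reads.

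The comparison, its gene lists and the genes named were chosen with earlier results of these data known. Names were drawn from every called gene, the 12 smallest p in each direction (3 predicted genes were left out), Csf1r, Csf1, Il34, P2ry12, Tmem119, Cx3cr1, Hcar2, Cd163 and Lyz2, up to 3 members of each list with the smallest p and the 3 smallest p of each difference of effects. Not every gene that this rule yields is printed, and some are not reported here. A further 15 genes were named after their values were seen: F13a1, Cd52, Clec7a, Selplg, Lpcat2, P2ry13, Rnase4, Golm1, Plin4, Map3k6, C1qa, C1qb, C1qc, Cd209b and Cd209f.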

Additional observations from a re-analysis of the deposited data

Results flagged for a closer look

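In 3 of 180 groups of 6 values (the named genes in controls and in PLX libraries) 1 library lay far from the other 5 by Dixon's criterion, which chance meets in about 1 of 20 groups. C1qa had 1132 in PLX 06, with the next PLX library at 978. Tent5c had 87.5 in PLX 01 and 63.2 in the next. Zfp493 had 124 in control 01 and 104 in the next control.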

How the results depend on the processing

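The count of 5 genes stayed at 5 with a pseudocount of 0.5 or 5, a floor counted over all 48 libraries, rescaling by TMM factors or edgeR, and was 4 with no filter or with array weights. It was 3 with the term for the outlying libraries (limma, and edgeR with the same term, chosen after seeing the data), 1 without those, and 8 with DESeq2 (1 higher, 7 lower). With the 12 libraries alone in the fit it was 0 (3883 at an unadjusted p under 0.05), where fewer samples set the spread. With 1 library left out it ran from 1 to 6. A replicate block on the sample number gave 5 calls, all shared. The labels do not make the number a pair. Same-numbered libraries correlated, in their deviations from the group means, at 0.11 to 0.18 for 5 numbers and at -0.02 for number 5, and 4 of 6 correlated best with their own number, so a shared number effect is hinted at but not in every pair, and the groups were treated as unpaired. For Csf1r the difference with 1 library left out ran from -0.28 to -0.16, and the exact permutation p with the block was 0.125. The differences of effects stayed at 0 calls in every setting run. Of 87 named genes tested, 27 values over the settings changed sign, all of genes that were not called. Csf1 was -0.0033 with TMM, -0.0055 with array weights, -0.0024 with edgeR and from -0.038 to 0.034 with 1 library left out. Il34 was 0.039 with the term, 0.065 without the outlying libraries and 0.038 with edgeR and the term. In the same order C1qa was 0.11, 0.14 and 0.11, C1qb 0.060, 0.13 and 0.051, and C1qc 0.11, 0.18 and 0.12, with from -0.11 to 0.025 for C1qc with 1 library left out. Chaf1a ran from -0.066 to 0.021 with 1 library left out, and Hs3st5 was -0.041 without the outlying libraries. Why these signs changed was not tested. Counting noise limits genes such as Hcar2, Cd209b, Ly9 and Upk1b, which had few reads per library.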
